A study of Homo sapiens with 4 samples.

Results

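The genes described here encode the proteins of the cytosolic ribosome. A gene was taken when both deposited tables list it with a protein-coding RefSeq transcript and when its symbol is RPL or RPS followed by a number and at most a single letter A, L or X, or is RPLP0, RPLP1, RPLP2 or RPSA. This rule found 81 of 27685 genes, with 185 transcripts in all. Of these, 49 encode proteins of the large subunit and its stalk and 32 encode proteins of the small subunit. No measured value was used to choose them. RNA was sequenced from HT-29, a human colon cancer cell line, carrying either a control vector or a vector for Myc-TRIM40, which is the ubiquitin E3 ligase TRIM40 with an N-terminal Myc tag. Both lines were made with a retroviral vector and puromycin selection, grew in RPMI medium with fetal bovine serum and received no further treatment. The sources used here do not say whether a line was a pool or a single clone. There were 4 libraries, a control and a Myc-TRIM40 library from each of 2 independent experiments, so that each condition has n = 2.

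Each ribosome carries nearly every ribosomal protein once, and growing cells keep the mRNAs of these proteins among their most abundant. The mRNAs are short, and most begin with a C followed by a run of C and T bases, the 5′ terminal oligopyrimidine (TOP) motif. Through this motif the kinase mTORC1 and the RNA-binding protein LARP1 control the translation and the stability of TOP mRNAs together.

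The bases around the transcription start are shown for genes that the values below return to, because the TOP motif is the feature that joins these mRNAs. Each sequence runs 5′ to 3′ on the strand of the gene from 10 bases before an annotated RefSeq start to 15 bases from it, in the build GRCh38.p14, and capitals mark the run of C and T bases where it begins with C at the start itself and is at least 5 bases long. RPL13A, RPS3A, RPS14 and RPS21 had the lowest log2 fold changes among members with over 1000 reads in every library, RPL12 had the highest among members that went the same way in both experiments, and RPLP2 and RPS6 stand for the stalk and for a protein known from growth signalling.
RPL13A, chr19:49487598-49487622, plus strand: aaacctcctcCTTTTCCaagcggct
RPS3A, chr4:151099618-151099642, plus strand: cccacttccgCCCTTTTggctctct
RPS14, chr5:150449725-150449749, minus strand: ccctcccactCTCTCTTTCCggtgt
RPS21, chr20:62387093-62387117, plus strand: ctagctgcttCCTTTCTCTCTCgcg
RPL12, chr9:127451392-127451416, minus strand: cgatttccggCCTCTCggctttcgg
RPLP2, chr11:809957-809981, plus strand: tcggcgccttCCTTTTCCTCCCTgt
RPS6, chr9:19380222-19380246, minus strand: gaagttggccCTCTTTTCCgtggcg
The next 3 have no such run at the annotated start. RPS27L and RPL10L are paralogues of RPS27 and RPL10, and the third is the upstream start of RPL15, whose transcripts are described below.
RPS27L, chr15:63157463-63157487, minus strand: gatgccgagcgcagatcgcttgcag
RPL10L, chr14:46651767-46651791, minus strand: gtagttaagagagcgcattttgact
RPL15, chr3:23916535-23916559, plus strand: tggggcctgctggaggagcttcacg

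Promoter sequence was matched for 64 of the 81 genes, and 46 of these, 71.9%, had at least 1 TOP-like start. Of the 27305 genes of the promoter table, 5.14% had one, as did 7.07% of the 11554 matched genes that were tested here. The list of other mRNAs known for the motif had it in 13 of 14 matched genes, and the mitochondrial ribosomal protein genes had it in 6 of 70. The annotated start need not be the one used in these cells, so a match is a description of the annotation.

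The libraries held between 60954602 and 67424698 reads. TRIM40 itself had 0 reads in both control libraries and 272646 (experiment 1) and 110665 (experiment 2) reads with Myc-TRIM40. All 8 markers of colon epithelium on the list used were above the filter on low counts. Among the markers of other cells, COL3A1, ALB and CD3E had 0 reads in every library, PTPRC had at most 4, COL1A1 had 226 and 352 in experiment 1 and 123 and 148 in experiment 2, PECAM1 had 17 and 31, and 21 and 27, and LYZ, which secretory epithelium also makes, had between 128650 and 195690. Ribosomal protein genes have many near-identical pseudogenes, and 37 of the 81 overlap another gene with at least 10 reads, mostly a small nucleolar RNA in an intron. The library kit marks strand, but whether the counting used it is not given in the sources used here, so the reads of a single member are uncertain to that extent.

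Ribosomal protein genes took a smaller share of the reads in Myc-TRIM40 cells than in control cells in both experiments. The share went from 7.65% to 6.41% in experiment 1 and from 10.5% to 7.19% in experiment 2, which is 1.24 and 3.34 percentage points less, or 16.2% and 31.7% of the control share. The mean was 9.09% ± 2.03 in control and 6.80% ± 0.55 in Myc-TRIM40 libraries (SD, n = 2 each). Both Myc-TRIM40 libraries were thus below both control libraries, but the exact permutation test (two-sided) gave p = 0.33, the smallest that 2 libraries against 2 can give. The 2 control libraries differed from each other by 2.88 points, more than the conditions differed in experiment 1, while the 2 Myc-TRIM40 libraries differed by 0.778 points. The 95% binomial (Wilson) intervals were at most 0.0147 points wide and cover counting error only, so the depth was not what limited this comparison. In bulk RNA, fewer cells of a kind and less of an RNA in each cell cannot be told apart.

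Both subunits showed the same order of libraries. The large subunit genes took 4.71% and 3.93% of reads in experiment 1 and 6.28% and 4.39% in experiment 2, without and with Myc-TRIM40. The small subunit genes took 2.95% and 2.48% in experiment 1 and 4.25% and 2.80% in experiment 2. Neither subunit stood apart from the other in this measure, since the relative difference in experiment 1 was 16.5% for the large and 15.7% for the small subunit, and 30.1% and 34.1% in experiment 2. On FPKM, which divides the reads by transcript length and library total, the members took 20.4% and 17.8% of the summed FPKM in experiment 1 and 23.5% and 18.6% in experiment 2.

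**Figure D1:**
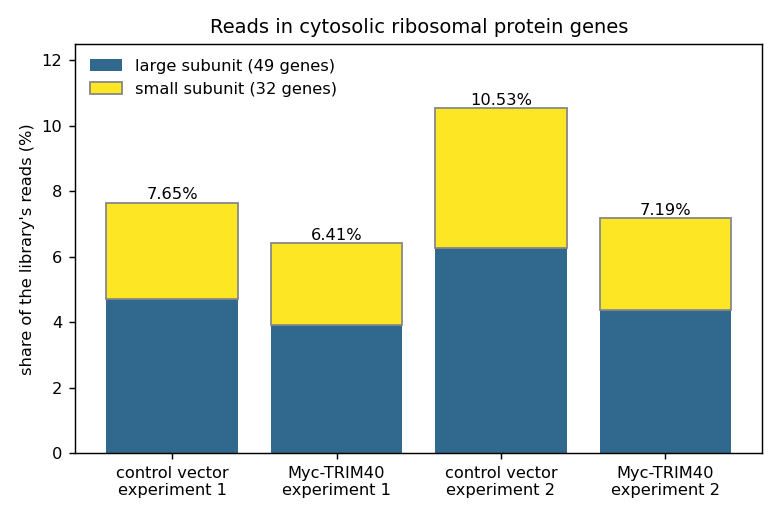
Share of each library's reads in the 81 cytosolic ribosomal protein genes, in percent, with large subunit genes at the bottom of each bar and small subunit genes on top. There is 1 library per bar and no error bar; both Myc-TRIM40 bars (6.41% and 7.19%) are lower than both control bars (7.65% and 10.5%), and the control bars differ from each other by 2.88 points.

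Of the 81 genes, 78 had enough reads for the gene-wise test. Of these, 0 passed an adjusted p of 0.05 in either direction by edgeR's quasi-likelihood test with the experiment as a block and Benjamini-Hochberg adjustment over 14868 genes, and DESeq2 called 0 as well. Across all genes 0.0202% were called lower and 0.0404% higher by edgeR, and 0.0605% lower by DESeq2. At an unadjusted p under 0.05, 46 of the 78 were lower in Myc-TRIM40 cells and 0 were higher, where 1.13% of all genes were lower and 3.41% higher. That count was 46 by DESeq2 with the block, 1 by edgeR without the block and 0 by limma on log2(FPKM + 1). The smallest adjusted p among the members was 0.49 by edgeR, that of RPL13A, and the standard errors of the log2 fold changes ranged from 0.157 to 0.389.

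The members went the same way in both experiments with few exceptions. The log2 ratio of TMM-normalized reads, Myc-TRIM40 over control, was below 0 for 76 of 78 members in experiment 1 and for 77 in experiment 2, and for 75 in both, against 49.8%, 48.0% and 26.3% of all genes. Its median over the members was -0.25 in experiment 1 and -0.69 in experiment 2, with 0.00 and 0.03 over all genes tested. Of 939 other genes with transcript lengths of 500 to 1000 bases, 54.3% were below 0 in experiment 1 and 83.3% in experiment 2. Both ratios were below 0 for 452 of these 939, and for all 47 members in that range of lengths. Of the 939, 25 had a log2 CPM (reads scaled by library size) of at least 8. All 25 were below 0 in experiment 2 and 19 in experiment 1. For 51 of the 78, both Myc-TRIM40 libraries were below both control libraries, as for 9.67% of all genes. Of the genes of 500 to 1000 bases, this held for 32 of 47 members and for 204 of 939 others. Of the 25 others with a log2 CPM of at least 8, it held for 9. That count of 51 was also 51 with DESeq2 size factors, but 46 by library total, 45 on FPKM and 44 on TPM. The counts below 0 were the same 76, 77 and 75 when reads were scaled by library total, DESeq2 size factors or the upper quartile, and on FPKM and TPM. TPM moved the median of all genes to 0.06 and 0.27 in the 2 experiments, and the members' medians to -0.18 and -0.32. Because the members share 4 libraries, their number says nothing of how often another experiment would give this direction.

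**Figure D2:**
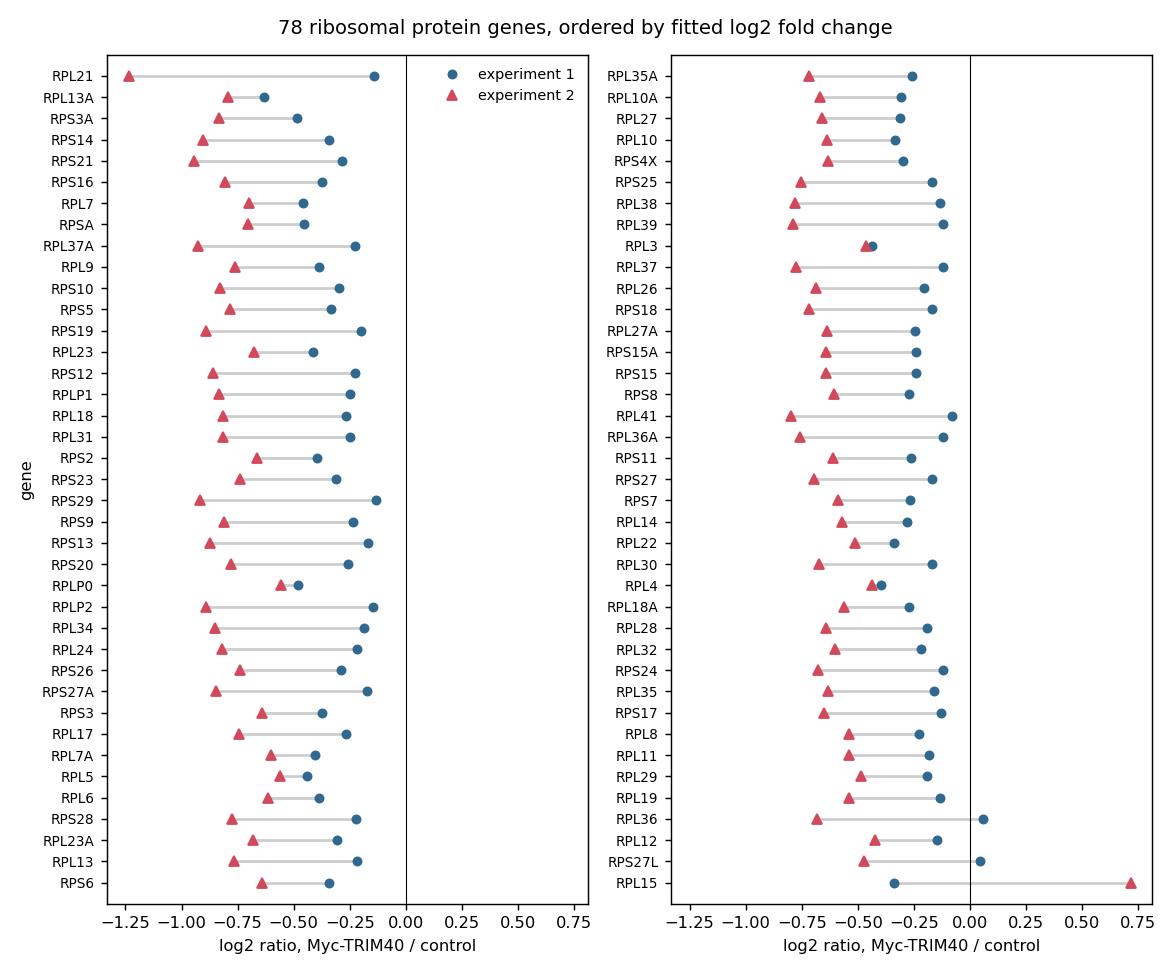
Log2 ratio of TMM-normalized reads, Myc-TRIM40 over control, for the 78 ribosomal protein genes tested, 1 row per gene in order of the fitted log2 fold change, with a circle for experiment 1 and a triangle for experiment 2. The triangles lie left of the circles for all members but RPL15, and only RPL36, RPS27L and RPL15 have points on both sides of 0.

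The ratio was further from 0 in experiment 2 for nearly all members. It was lower in experiment 2 than in experiment 1 for 77 of the 78, against 51.2% of all genes tested, by a median of 0.45 on the log2 scale. Experiment 1 gave ratios between -0.63 (RPL13A) and 0.06 (RPL36). Experiment 2 gave ratios between -1.24 (RPL21) and 0.72 (RPL15). The order of the members by ratio was not shared by the experiments. The Spearman correlation of the ratios over 78 members, which share the libraries, was -0.20. Some members were still below the lower quartile of the members in both experiments, -0.33 and -0.80. Examples are RPS3A (-0.48 and -0.83), RPS14 (-0.34 and -0.91) and RPS16 (-0.37 and -0.81).

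**Figure D3:**
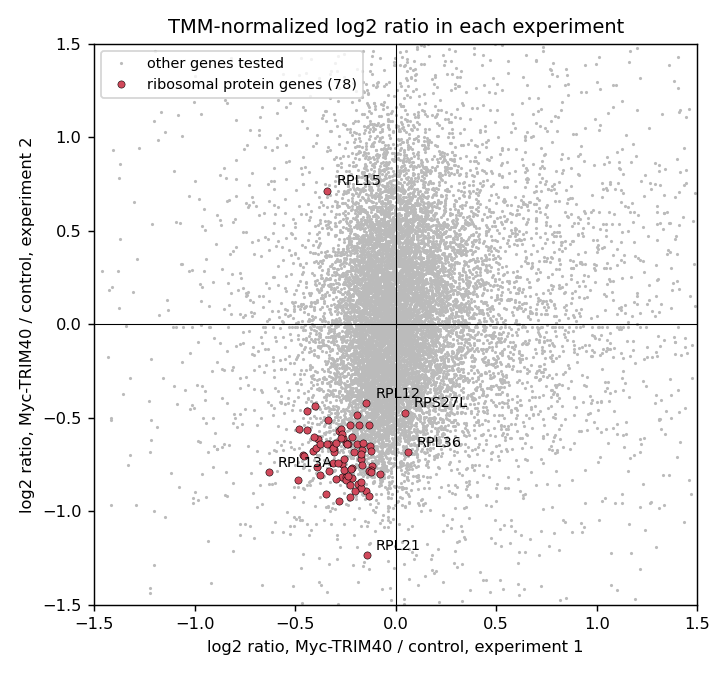
Log2 ratio of TMM-normalized reads, Myc-TRIM40 over control, in experiment 1 (x axis) and experiment 2 (y axis), with 1 point per gene for the 78 ribosomal protein genes and for the other 14790 genes tested; 931 of the latter lie outside the axes. The ribosomal protein genes lie at the lower left, where both ratios are below 0, except RPL36 and RPS27L just right of 0 in experiment 1 and RPL15 above 0 in experiment 2.

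Among the large subunit genes, RPL13A, whose protein also serves in the interferon-gamma-activated inhibitor of translation, had the smallest p. Its FPKM was 1906 with the control vector and 1261 with Myc-TRIM40 in experiment 1, and 2616 and 1648 in experiment 2. Both Myc-TRIM40 libraries were below both control libraries, and the log2 fold change was -0.71 (SE 0.165, adjusted p = 0.49 by edgeR). RPL13A was the only member at least 1.5-fold lower in both experiments on FPKM + 1, with ratios of 0.662 and 0.630 before its pseudogene record is added, where 0.0506% of all genes were. In experiment 2 alone 35 members were at least 1.5-fold lower and in experiment 1 only RPL13A, against 1.59% and 0.466% of all genes. The 1 member at least that much higher in experiment 2 was RPL15, against 4.71% of all genes. In experiment 1, and in both experiments, 0 members were, against 1.66% and 0.26%.

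RPL12, whose protein sits at the base of the stalk, had the log2 fold change nearest 0 among the members that went the same way in both experiments. Its FPKM was 1474 and 1365 in experiment 1 and 1710 and 1392 in experiment 2, without and with Myc-TRIM40, with a log2 fold change of -0.28 (SE 0.186). The next were RPL19 (-0.34), RPL29 (-0.34), RPL11 (-0.36) and RPL8 (-0.38), the last of which encodes a protein near the site of peptide bond formation. For all 5, each experiment gave a lower value with Myc-TRIM40 than with the control vector.

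The stalk, which recruits and activates the translation factors that hydrolyse GTP, is built on RPLP0 from copies of RPLP1 and RPLP2. RPLP1 had the highest FPKM of all members, at 3583 and 3090 in experiment 1 and 4090 and 2507 in experiment 2. RPLP0 had 1958 and 1438 FPKM in experiment 1 and 2096 and 1554 in experiment 2. RPLP2 had 1745 and 1616 FPKM in experiment 1 and 2257 and 1326 in experiment 2. All 3 had both Myc-TRIM40 libraries below both control libraries, and their log2 fold changes were alike at -0.54 (SE 0.196), -0.52 (SE 0.163) and -0.52 (SE 0.225). The experiments contributed unequally to these values, with RPLP0 at -0.48 and -0.56 in the 2 experiments, RPLP1 at -0.25 and -0.83 and RPLP2 at -0.15 and -0.89.

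Among the small subunit genes the lowest were RPS3A, RPS14, which lies in the region lost in the 5q- syndrome, and RPS21. RPS3A had 1169 and 855 FPKM in experiment 1 and 2436 and 1489 in experiment 2, with a log2 fold change of -0.66 (SE 0.183, adjusted p = 0.77 by edgeR). Its Myc-TRIM40 library of experiment 2 was above the control library of experiment 1, so the groups overlapped although each experiment gave a lower value. RPS14 had 1264 and 1014 FPKM in experiment 1 and 1681 and 972 in experiment 2, and its log2 fold change was -0.62 (SE 0.211). RPS21 had 1733 and 1459 FPKM in experiment 1 and 1961 and 1112 in experiment 2, and its log2 fold change was -0.61 (SE 0.222). For RPS14 and RPS21 the groups did not overlap. Over the subunit, 22 of 32 genes had an unadjusted p under 0.05 in the lower direction, against 24 of 46 tested genes of the large subunit, and the median ratios were -0.26 and -0.74 in the 2 experiments for the small and -0.25 and -0.67 for the large subunit.

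Several other members have a known role besides or within the ribosome. RPL5 and RPL11, which with 5S rRNA bind MDM2 when ribosome assembly is disturbed, had ratios of -0.44 and -0.18 in experiment 1 and -0.56 and -0.54 in experiment 2. RPS6, the substrate of the S6 kinases, had 1864 and 1508 FPKM in experiment 1 and 2824 and 1976 in experiment 2, and a log2 fold change of -0.49 (SE 0.176). RPS3, at the mRNA entry of the small subunit, had a log2 fold change of -0.51, RPSA, also known as the laminin receptor, one of -0.58, and RPS19, mutated in Diamond-Blackfan anaemia, one of -0.55. RPS27A, which is made as a fusion with ubiquitin, had 654 and 596 FPKM in experiment 1 and 1325 and 805 in experiment 2. RPL41, the smallest ribosomal protein, showed the contrast between the experiments, with 1722 and 1673 FPKM in experiment 1 and 2574 and 1613 in experiment 2.

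The members whose ratio differed most between the experiments, apart from RPL21 and RPL15, were RPS29 and RPLP2. RPS29, a small zinc-binding protein, had 472 and 435 FPKM in experiment 1 and 729 and 413 in experiment 2, with ratios of -0.13 and -0.92. In experiment 1 the difference was thus small, and the control library of experiment 2 stood above the other 3. RPL36 had 763 and 815 FPKM in experiment 1 and 1108 and 751 in experiment 2, so its Myc-TRIM40 value was above the control in experiment 1 and below it in experiment 2.

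RPL4 and RPL3, both long for ribosomal proteins, were the members whose experiments were most alike besides RPLP0. RPL4 had 1859 and 1445 FPKM in experiment 1 and 2392 and 1928 in experiment 2. RPL3, a large subunit protein near the peptidyl transferase centre, had 1549 and 1170 FPKM in experiment 1 and 1557 and 1230 in experiment 2. The control libraries of RPL3 were nearly level, and both Myc-TRIM40 libraries lay below them, with a log2 fold change of -0.45 (SE 0.166, adjusted p = 0.89 by edgeR).

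The levels per length were high and spread over a wide range. In every library 76 of the 81 genes had at least 100 FPKM, and the median member was at 1077 and 887 FPKM in experiment 1 and at 1653 and 1020 in experiment 2, without and with Myc-TRIM40. After RPLP1, the highest mean FPKM over the 4 libraries were those of RPS2 (2894), RPS18 (2771), RPL23 (2661) and RPL8 (2298). RPS2 and RPS18 belong to the small subunit and the others to the large. RPS18 had 2945 and 2680 FPKM in experiment 1 and 3283 and 2176 in experiment 2, so both Myc-TRIM40 libraries were below both control libraries. The ranges of these neighbours over the libraries overlapped, since RPS2 alone ranged from 2393 to 3618 and RPL23 from 1962 to 3642. Within each library RPS2 and RPS18 were above RPL8. RPL23 was below RPL8 in the Myc-TRIM40 library of experiment 1, at 1962 against 2163.

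The 5 genes below 100 FPKM in some library were the paralogues and RPL21. RPL10L and RPL39L, paralogues best known from the testis, had 0 reads in every library. By counting error alone this allows up to 0.0492 CPM in the library with the fewest reads. The limit does not cover reads assigned to another gene of like sequence, as described for RPL21 below. RPL3L, the paralogue of striated muscle, had 4 and 6 reads in experiment 1 and 0 and 5 in experiment 2, while RPL3 had 128967 and 97717, and 143776 and 105093. RPS27L, a p53 target, was the only one of these paralogues with an appreciable level, at 2633 and 2791 reads in experiment 1 and 5865 and 4268 in experiment 2. Its ratios of 0.046 and -0.47 went opposite ways in the 2 experiments, whereas RPS27 had -0.17 and -0.70. The control and Myc-TRIM40 values of RPS27L overlapped, and its log2 fold change of -0.21 (SE 0.227) was smaller than its error.

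Genes that make ribosomal proteins or their close relatives but fall outside the naming rule gave mixed values. FAU, which fuses a ubiquitin-like protein to a small subunit protein, had 585 and 554 FPKM in experiment 1 and 871 and 528 in experiment 2. Its log2 fold change of -0.48 (SE 0.239) lay within the range of the members. The paralogues RPL36AL, RPL26L1 and RPL22L1 had ratios of 0.05, 0.05 and 0.40 in experiment 1 and -0.77, -0.75 and -0.84 in experiment 2, and RPL7L1 had -0.17 and -0.05. Of these 5 genes, 0 had an unadjusted p under 0.05, where 1.13% of all genes were lower and 3.41% higher.

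Transcript length was examined because ribosomal protein mRNAs are short and because length can enter an RNA-seq count. In experiment 2 the ratio depended on length across all 14868 genes tested, with a Spearman correlation of 0.59, and in experiment 1 it hardly did, with 0.08. These correlations run over genes of the same libraries and are given as a description. Other genes with read-weighted transcript lengths of 500 to 1000 bases, 939 in number, had a median ratio of -0.03 in experiment 1 and -0.59 in experiment 2. The 47 members in that range of lengths had -0.26 and -0.70. In this range of lengths the members were thus nearer to the other genes in experiment 2 than in experiment 1. The 25 other genes of that range with a log2 CPM (reads scaled by library size) of at least 8 had -0.11 and -0.70, and the same without FAU and the record RPL21P28, which are themselves tied to ribosomal proteins. Below that range the experiments differed in another way, as 372 other genes of up to 500 bases had -0.10 and -0.13 and the 13 members of that length had -0.17 and -0.77.

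The trend of the ratio on length, fitted over all genes tested within each experiment, was then taken out. The median over the members became -0.21 in experiment 1 and -0.15 in experiment 2. Below 0 were 76 of 78 members in experiment 1, 66 in experiment 2 and 65 in both, against 50.4%, 50.2% and 27.3% of all genes. In experiment 1 the correction therefore changed little. In experiment 2 it brought the median nearer to 0, but unevenly over lengths. The 10 members of over 1500 bases kept a median of -0.48 there, beside -0.13 for the 68 of up to 1500 bases. From members of up to 500 bases the curve took out more than the median of other genes of that length, -0.13. RPS27, with 361 bases, went from -0.70 to -0.14. The change in experiment 2 thus depended partly on how the curve was fitted. RPL12 and RPS27L had mean ratios of 0.044 and 0.040 after the correction, above 0, and the count of members at least 1.5-fold lower in both experiments went from 1 to 0. What gave the trend on length was not tested.

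Length also ordered the members among themselves, and in opposite ways. Over the 68 members of up to 1500 bases, the Spearman correlation of length and ratio was -0.53 in experiment 1 and 0.36 in experiment 2. The 13 members of up to 500 bases had median ratios of -0.17 and -0.77, and the 8 members of over 1000 to 1500 bases had -0.44 and -0.56. The members of over 1000 to 1500 bases therefore gave more alike ratios in the 2 experiments than those of up to 500 bases. RPL3, with a read-weighted length of 1332 bases, had -0.44 and -0.47, and RPLP0, with 1213 bases, had -0.48 and -0.56. RPL39, with 419 bases, had -0.12 and -0.79.

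Some members are not short as the files give them, and 10 had a read-weighted length of over 1500 bases. Their median ratios were -0.28 and -0.64, where 12134 other genes of over 1500 bases had 0.01 and 0.11. RPS3, with 2091 bases, had 1013 and 800 FPKM in experiment 1 and 1294 and 905 in experiment 2. RPL10, with 2226 bases, had 598 and 486 FPKM in experiment 1 and 750 and 526 in experiment 2. For both genes the Myc-TRIM40 libraries were below the control libraries. These lengths are those the files give, weighted by how reads were assigned to transcripts, and the length of the RNA in the cells was not measured.

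**Figure D4:**
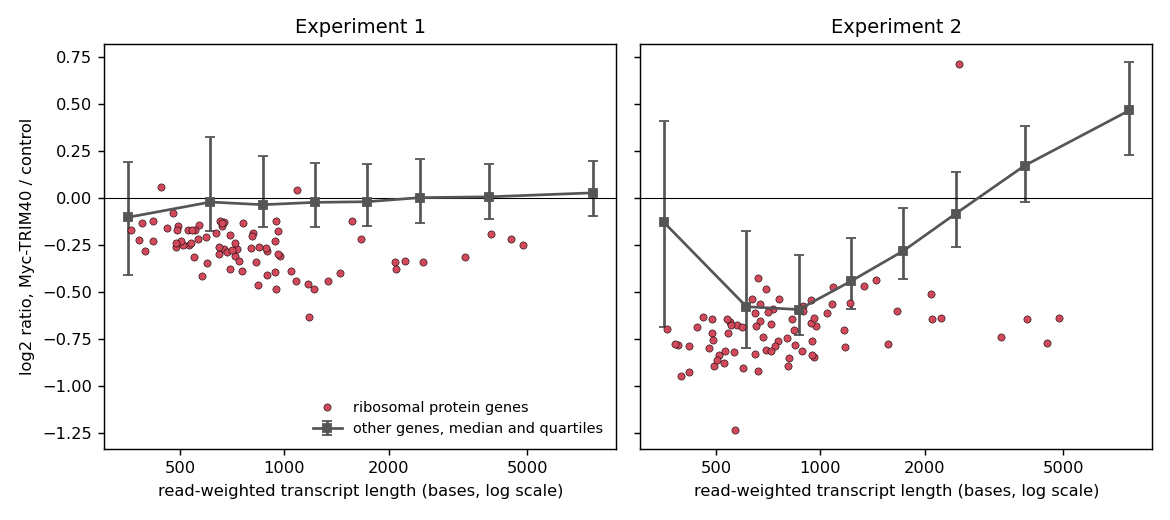
Log2 ratio of TMM-normalized reads, Myc-TRIM40 over control, against read-weighted transcript length in bases (log scale) in each experiment; circles are the 78 ribosomal protein genes, and squares with bars are the median and quartiles of the other genes in bins of length, the leftmost up to 500 bases and the rightmost over 5000. In experiment 1 the line of other genes is flat near 0 with the members under it, and in experiment 2 the line goes from -0.13 at up to 500 bases to -0.58 at over 500 to 750 bases and then climbs to 0.47 at over 5000 bases, with the members of over 500 to 1500 bases nearest to it and most of the shorter and the longest ones far under it.

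The control libraries were where the experiments differed for these genes. From experiment 1 to experiment 2 the median member was higher by 0.59 on the log2 scale of TMM-normalized reads in control cells, with 76 of 78 members higher, and by 0.13 in Myc-TRIM40 cells, with 55 higher. Other genes of 500 to 1000 bases were higher by 0.64 in control cells and 0.04 in Myc-TRIM40 cells, and all genes tested by 0.01 and -0.04. The control library of experiment 2 thus had the highest values, for the members as for other short genes. RPL24 shows it, with 1184 and 1045 FPKM in experiment 1 and 2623 and 1621 in experiment 2, without and with Myc-TRIM40. With experiment 1 alone the median ratio of the members was -0.25, and with experiment 2 alone it was -0.69.

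Other mRNAs known to carry the TOP motif, mostly translation factors, had a median read-weighted length of 1757 bases, beside 720 for the members. Whether the motif or the length had a part in the ratios was not tested. The 20 genes of this list were chosen from common knowledge and not by their values, but with results of these data known. Their median ratios were -0.25 in experiment 1 and -0.38 in experiment 2. Below 0 were 19 of 20 in each and 18 in both, against 49.8%, 48.0% and 26.3% of all genes. At an unadjusted p under 0.05 by edgeR, 5 of 20 were lower and 0 higher, where 1.13% of all genes were lower and 3.41% higher. At an adjusted p of 0.05 by edgeR, 0 passed. With the length trend taken out, the medians were -0.25 and -0.14, beside -0.21 and -0.15 for the members.

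EEF1A1, which brings aminoacyl-tRNA to the ribosome, had 2971 and 2271 FPKM in experiment 1 and 3138 and 2580 in experiment 2, and a log2 fold change of -0.42 (SE 0.131, adjusted p = 0.89 by edgeR). EEF1B2, its exchange factor, was the lowest of the list at -0.49 (SE 0.196), followed by the initiation factor subunit EIF3F. EEF2, which moves the ribosome along the mRNA, was the highest at 0.06 (SE 0.196), with ratios of -0.26 and 0.38, and EIF4A2 followed with 0.18 and -0.26. EEF1A1 thus had nearly the same ratio in both experiments, -0.42 and -0.41, while EEF2 and EIF4A2 went opposite ways.

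The mitochondrial ribosomal proteins, a family of like size whose mRNAs mostly lack the TOP motif, gave a different picture in experiment 1. Their 78 genes had median ratios of -0.07 and -0.50, and -0.05 and -0.11 with the length trend taken out. Below 0 were 59 of 78 in experiment 1 and 76 in experiment 2, against 49.8% and 48.0% of all genes. At an unadjusted p under 0.05, 0 of 78 were lower or higher, where 1.13% of all genes were lower and 3.41% higher. Of the 78 cytosolic members 46 were lower. The families also differ in median length, 1184 bases here and 720 for the members, and in share of reads. These counts are therefore not a like comparison. The mitochondrial genes took 0.515% and 0.491% of reads in experiment 1 and 0.798% and 0.636% in experiment 2. The Myc-TRIM40 library of experiment 2 was thus above the control library of experiment 1 (exact permutation p = 0.667, two-sided). MRPS24 and MRPS12 were the lowest, at -0.51 for both, and MRPL10 and MRPS27 the highest.

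The 33 genes of ribosome biogenesis had median ratios of -0.10 and -0.25. FBL, the methyltransferase fibrillarin, was the 1 gene of this list lower at an unadjusted p under 0.05, as 1.13% of all genes were. It had 403 and 333 FPKM in experiment 1 and 479 and 339 in experiment 2, and a log2 fold change of -0.47 (SE 0.203). NHP2 was next lowest, and POLR1A, the largest subunit of RNA polymerase I, and UTP20 were the highest, with ratios of -0.15 and 0.94, and -0.21 and 0.74. MYC, which drives transcription of many of these genes, had 154 and 147 FPKM in experiment 1 and 118 and 126 in experiment 2, and NCL, the nucleolar protein nucleolin, had a log2 fold change of -0.06 (SE 0.166).

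Members with and without a TOP-like start had ratios in the same range. The 46 tested members with one had median ratios of -0.22 and -0.76, and the 17 matched and tested members without one had -0.29 and -0.63. RPL13A and RPS21 on one side and RPL12 on the other, whose start regions are printed above, all begin with such a run. No test was made, since the members share their libraries and the annotated starts of the second set may not be those used.

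RPL15 was the only member that was higher in experiment 2, and its transcripts were assigned differently in the libraries. The gene had 44668 and 36232 reads in experiment 1 and 28904 and 47903 in experiment 2, with ratios of -0.34 and 0.72 and a log2 fold change of 0.19 (SE 0.266), smaller than its error. Its 6 transcripts start at 2 positions, 23958036 and 23958589 on chromosome 3 of hg19. The transcript NM_002948, from the upstream start, had 5992 and 12334 reads in experiment 1 and 11325 and 38325 in experiment 2, which is 2.06 and 3.38 times as many in Myc-TRIM40 as in control cells. It made up 13.4% and 34.0% of the gene's reads in experiment 1 and 39.2% and 80.0% in experiment 2.

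The transcripts from the downstream start went the other way. Together they had 38339 and 23010 reads in experiment 1 and 16681 and 9297 in experiment 2, lower with Myc-TRIM40 in both. The transcripts from the upstream start together had 6329 and 13222 reads in experiment 1 and 12223 and 38606 in experiment 2. On these unscaled reads both Myc-TRIM40 libraries were thus above both control libraries for the upstream start. For the downstream start the Myc-TRIM40 library of experiment 1 was above the control library of experiment 2. As a share of the gene's reads, NM_002948 overlapped between the groups. It stood at 34.0% with Myc-TRIM40 in experiment 1 and at 39.2% with the control vector in experiment 2. The transcripts overlap and share sequence, so these are the authors' estimates of how reads divide among them, and the division itself was not tested. Reads assigned to single transcripts also moved widely in other members. NM_006013 of RPL10 had 437 and 388 reads in experiment 1 and 13662 and 414 in experiment 2. NM_001146227 of RPS20 had 52 and 74, and 148 and 6889. NM_001304288 of RPSA had 286 and 228, and 1350 and 5206.

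**Figure D5:**
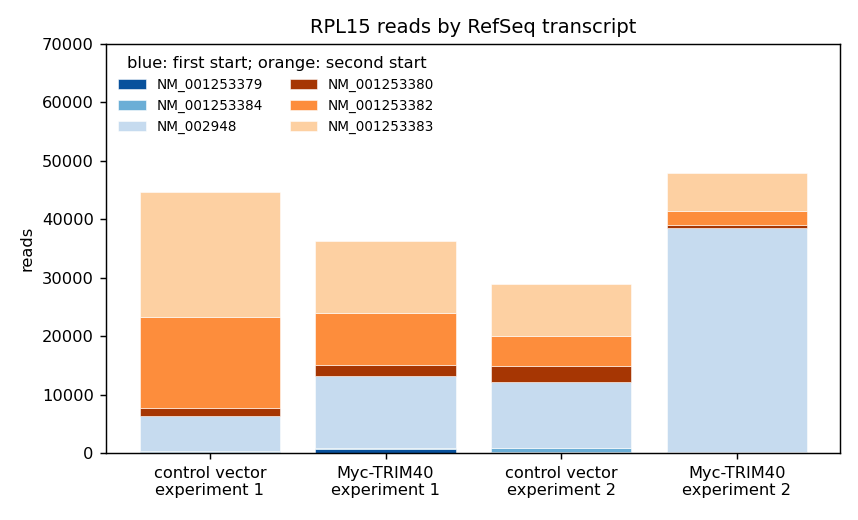
Reads assigned to the 6 RefSeq transcripts of RPL15 in each library, stacked with transcripts of the upstream start in blue at the bottom and those of the downstream start in orange on top; there is 1 library per bar and no error bar. The blue part goes from 6329 to 13222 reads in experiment 1 and from 12223 to 38606 in experiment 2, and the orange part from 38339 to 23010 and from 16681 to 9297.

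For RPL21 and RPL13A the files also hold a pseudogene record at nearly the same position. RPL21 spans 27825692 to 27830702 on chromosome 13 of hg19 and had 57 and 53 reads in experiment 1 and 248 and 106 in experiment 2. RPL21P28, at 27825693 to 27830699, had 85231 and 68303 reads in experiment 1 and 195418 and 112444 in experiment 2. RPL21 thus held at most 0.127% of the joint reads, and its low FPKM of between 1.48 and 6.30 and its log2 fold change of -0.72 (SE 0.389) describe that small remainder. The summed reads had ratios of -0.36 and -0.81, which lie within the range of the other members.

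RPL13A shares its position on chromosome 19 with RPL13AP5, which had 14962 and 21881 reads in experiment 1 and 10430 and 10024 in experiment 2. RPL13A held 90.4% and 81.0% of the joint reads in experiment 1 and 95.4% and 92.6% in experiment 2. With both records summed the ratios were -0.47 and -0.75 in place of -0.63 and -0.79, and on FPKM + 1 they were 0.789 and 0.663, so that RPL13A was no longer 1.5-fold lower in experiment 1. The place of RPL13A as the member with the lowest ratio in experiment 1 therefore rested on how its reads were divided with this record, while its direction did not.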

How the data were processed

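Both deposited tables list, for each RefSeq transcript, the authors' estimated counts of reads, in whole numbers without normalization, and the authors' FPKM; the table of experiment 2 adds the authors' TPM. TPM of experiment 1 was computed here from FPKM. The submitters' processing notes name HISAT2 2.1.0, StringTie 1.3.4d and hg19, without their roles, and the study names the TruSeq Stranded mRNA kit. Precision was limited by having 2 experiments and not by depth.

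The 63714 transcripts were summed to 27685 genes, and 14868 passed filterByExpr. Gene-wise tests were edgeR 4.0.16 quasi-likelihood fits (glmQLFit, glmQLFTest; R 4.3.3) with TMM and a block for the experiment. Labels number the replicates, and each table pairs 1 control with 1 Myc-TRIM40 library; libraries of one number deviated together (correlation 0.449). Standard errors were obtained from the fold change and the F statistic. Ratios within an experiment used a pseudocount of 0.5 reads. Length is the transcript length weighted by reads, and its trend was a lowess curve (fraction 0.3, statsmodels 0.14.6) on its log2. A gene at 0 was given a limit of 3 reads. P-values measure only the spread between these libraries. In the blocked edgeR fit each gene had 1 residual degree of freedom, beside a prior of 7.44 (median) drawn from all genes. Each p of that fit thus rested more on a spread shared over genes than on that of the gene itself.

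Named members were the 5 highest and 5 lowest fold changes among those moving the same way, the 4 differing most between experiments, the 5 highest and 5 lowest mean FPKM, the stalk, the paralogues and members with a known role. RPL4, RPL24 and RPL36 were chosen after their values were seen. Of each other list the 2 highest and 2 lowest were named; EEF1A1, MYC and NCL were added. Members and lists were chosen with earlier results of these data known. Start sequences are RefSeq's, from 250 bases before to 50 after each start.

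Alternatives were no block, DESeq2 1.42.0, upper-quartile scaling, no filter, limma 3.58.1 on log2(FPKM + 1), protein-coding transcripts only, overlapping members left out, a pseudocount of 0.1, TPM, median centring, a threshold of 2, the length trend and each experiment left out. Summing the records at 1 position, leaving FAU and RPL21P28 out of the short genes, the trend fitted without the members, members of up to 1500 bases, and the counts at an unadjusted p or without overlap were added after seeing the data. Some results that these rules cover are left out of the text.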

Additional observations from a re-analysis of the deposited data

How the results depend on the processing

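The count of members past an adjusted p of 0.05 was 0 in every alternative run, and the members' median log2 fold change kept its sign in all, from -0.69 and -0.25 with experiment 2 or experiment 1 alone to -0.27 on TPM and -0.19 with the length trend taken out. The 46 members lower at an unadjusted p under 0.05 became 20 without a filter and 20 with overlapping members left out, which leaves 41. They became 0 by limma on log2(FPKM + 1) and, for the replicate block, 1 without the block. The blocked fit is the one reported, and no other call changed with the block. The 1 member at least 1.5-fold lower in both experiments became 0 at a threshold of 2, 0 on TPM and 0 with the length trend taken out, and with an experiment left out the count lay between 1 and 35. Of 240 alternative values of 30 named members, 236 kept their direction. RPL12 and RPS27L came to 0.044 and 0.040 with the length trend taken out, RPL15 to between -0.34 and 0.72 with an experiment left out, and RPS27L to between -0.47 and 0.046. RPL36, which is not among the 30, came to 0.039 with the length trend taken out and to 0.059 with experiment 2 left out. The 1 member at least 1.5-fold lower in both experiments, RPL13A, was no longer so once summed with RPL13AP5. With an experiment left out there is 1 library per condition and no test. The cause of these changes was not tested, except that fewer genes were left in the test without overlapping members. With 2 libraries per condition, a permutation test cannot go below 0.33.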

Other observations

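Among the 3 readthrough genes that join a member to its neighbour, RPL17-C18orf32 had 428 and 253 reads in experiment 1 and 639 and 154 in experiment 2, without and with Myc-TRIM40. Its log2 fold change was -1.43 (adjusted p = 0.50 by edgeR), lower in both experiments. RPL36A-HNRNPH2 had ratios of -1.85 and 0.23, and RPS10-NUDT3 had 0.12 and 0.66, so the 3 genes did not share a direction. They overlap their member, RPL17, RPL36A or RPS10, whose own ratios were -0.27 and -0.75, -0.12 and -0.76, and -0.30 and -0.83.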
